A study of Homo sapiens with 6 samples.

Results

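The oncofetal genes HMGA2, HMGA1, LIN28B, IGF2BP1, IGF2BP2, IGF2BP3 and ARID3B were followed in liver cancer cells with reduced ATXN7L3. These 7 of the 34234 genes in the deposited count table were chosen by symbol, with their difference between the groups already known, so their fold changes are given as a description, with no p-value. RNA was sequenced from HCCLM3, an established human hepatocellular carcinoma line of high metastatic potential. The shATXN7L3 group had received a lentivirus that carried a short hairpin RNA against ATXN7L3 (3 libraries), and the shcontrol group a lentivirus with a control hairpin (3 libraries). All the cells were grown in DMEM with 10% FBS, and the medium was replaced 16 hours after the virus was added. The labels name no second hairpin against ATXN7L3, and the time from infection to harvest is not given in the sources used here. Replicates are not stated to be separate cultures, so the p-values below carry no more than library-to-library spread, part or all of which may be technical.

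ATXN7L3 is an adaptor of the deubiquitinase module of the SAGA coactivator complex, which removes ubiquitin from histone H2B. It had 20.6, 20.5 and 19.5 CPM in the shATXN7L3 libraries, against 36.4, 37.5 and 37.5 CPM in the shcontrol libraries, which left 54.5% of the control level (edgeR adjusted p = 6.69e-10). A two-sided exact permutation test gave p = 0.1, the smallest that 3 against 3 libraries allow. Levels are given as TMM-scaled CPM, counts per 1e6 counts of the scaled library. Library totals lay between 22376867 and 23915783 counts. Of 17935 genes with enough counts to test, 2182 rose and 2150 fell at an edgeR adjusted p under 0.05, which is 24.2% of them. Scaled by library size alone, 2955 rose and 1604 fell. Hepatocyte markers were expressed, but all 9 that could be tested were lower, with a summed level of 1760 to 1910 CPM in shATXN7L3 against 2200 to 2360 CPM in shcontrol. APOA1 and APOA2, which mark mature hepatocytes, were near 0. Of markers of other liver cells, few had enough counts to test. The leukocyte list had 3 of 7 testable and summed to 121 to 126 CPM in shATXN7L3 against 90.5 to 110 CPM in shcontrol, nearly all of it CD68, while PTPRC averaged 0.196 and 0.149 CPM. The endothelial list had 2 of 4 and summed to 42.4 to 44.4 CPM in shATXN7L3 against 57.2 to 62.1 CPM in shcontrol, with CDH5 at 0.0143 and 0.0446 CPM. The stellate cell and fibroblast list had 1 of 6 and summed to 5.43 to 5.94 CPM in shATXN7L3 against 23.8 to 28 CPM in shcontrol, with COL1A1 at 0.21 and 0.374 CPM.

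The let-7 microRNAs rise as embryonic tissues mature and hold down a group of growth genes of the fetus by pairing with sites in the 3′ UTRs of their mRNAs. LIN28B blocks the maturation of let-7 precursors and is itself a let-7 target, so that LIN28B and let-7 oppose each other. HMGA2 and the IGF2BP genes are well known as targets of this kind. HMGA2, IGF2BP1 and IGF2BP3 are expressed in fetal tissue, are low or silent in most adult tissue and reappear in many carcinomas, including those of the liver. HMGA1 and ARID3B are counted among the targets as well.

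The sequences that tie these genes together are the shared seed of the let-7 family and the places in their 3′ UTRs that match it. The family was taken as the mature forms named let-7 or miR-98 that carry the seed of let-7a at bases 2 to 8. RefSeq (GRCh38.p14) lists 9 such 5p forms, on hairpins from several chromosomes. Some are shown 5′ to 3′, with the seed in capitals. They are a form with the most hairpins, a form whose hairpin gene had enough counts to test and the form with its own name.
hsa-let-7a-5p: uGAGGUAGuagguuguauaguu
hsa-let-7i-5p: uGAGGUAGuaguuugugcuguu
hsa-miR-98-5p: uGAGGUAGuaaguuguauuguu

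The reverse complement of the seed, CTACCTC, was searched on the transcript strand of GENCODE 29 3′ UTRs, and a match followed by A (CTACCTCA) was called an 8mer, any other a 7mer. Of 19111 protein-coding genes, 1639 (8.6%) held at least 1 match in the 3′ UTR of their chosen transcript. All 7 genes described here held at least 1. HMGA2, IGF2BP1 and LIN28B held 4 each, a number that only 12 genes reached or passed. Longer UTRs have more room for a match. Of the UTRs within 10% of the length of that of HMGA2 (3003 bases), 15.3% held a match, and the share was 31.9% around IGF2BP1 (6206 bases) and 23.8% around LIN28B (4549 bases).

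The 4 matches of HMGA2 are shown with 14 bases before them, transcript strand 5′ to 3′, the match in capitals (with its closing A in an 8mer). They lie on the plus strand of chromosome 12 (GRCh38) in the 3′ UTR of transcript HMGA2-204, at chr12:65963299-65963320, chr12:65964534-65964555, chr12:65964946-65964967 and chr12:65965799-65965820. The coordinates cover the whole stretch shown. Counted from the stop codon, the first match begins at base 21 and is an 8mer, and the other three, at bases 1256, 1668 and 2521, are 7mers.
HMGA2 match 1: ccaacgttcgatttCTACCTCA
HMGA2 match 2: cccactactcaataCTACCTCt
HMGA2 match 3: tgacttgcaaagacCTACCTCc
HMGA2 match 4: atcaaaacacactaCTACCTCt

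IGF2BP1 is shown beside it because it holds as many matches, 3 of them 8mers, and stood lower, not higher, in shATXN7L3. Its matches lie on the plus strand of chromosome 17 in IGF2BP1-201, at chr17:49051062-49051083, chr17:49053699-49053720, chr17:49054353-49054374 and chr17:49054998-49055019, beginning at bases 1632, 4269, 4923 and 5568 from the stop codon.
IGF2BP1 match 1: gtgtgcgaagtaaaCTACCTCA
IGF2BP1 match 2: agcagtgctagtaaCTACCTCA
IGF2BP1 match 3: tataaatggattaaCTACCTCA
IGF2BP1 match 4: cacttttgttttatCTACCTCt

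IGF2BP2 and IGF2BP3 held a single 8mer each, on the minus strands of chr3:185644220-185644241 and chr7:23311795-23311816. HMGA1 and ARID3B held a single 7mer each, at chr6:34245830-34245851 and chr15:74598102-74598123 on the plus strands. They are shown for comparison with HMGA2, whose matches are more numerous.
IGF2BP2 match: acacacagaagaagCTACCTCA
IGF2BP3 match: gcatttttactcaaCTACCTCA
HMGA1 match: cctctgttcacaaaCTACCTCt
ARID3B match: atttcaataaacctCTACCTCt

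LIN28B held 2 8mers and 2 7mers in LIN28B-201, the first at chr6:105078813-105078834, beginning at base 44 from the stop codon. A match of letters is a description of the UTR and does not show that let-7 binds there in these cells. Mature let-7 is not polyadenylated and was not measured by these libraries.

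Of the 7 genes, HMGA2 had the largest difference between the groups. It encodes a small chromatin protein whose AT-hooks bind the minor groove of AT-rich DNA and bend it, and it drives growth and mesenchymal traits in embryos and tumours. The gene (chr12:65824131-65966295, plus strand) had 873, 905 and 905 counts in the shATXN7L3 libraries, against 306, 311 and 304 counts in the shcontrol libraries. After scaling these were 37.5, 37.5 and 37.9 CPM in shATXN7L3 and 13.6, 14.3 and 13.4 CPM in shcontrol. All the shATXN7L3 libraries were high and all the shcontrol libraries low, with no overlap and a gap far wider than the spread within either group. The level was 37.7 ± 0.188 CPM in shATXN7L3 and 13.8 ± 0.498 CPM in shcontrol (mean ± SD, n = 3 each). The log2 fold change was 1.45 ± 0.0595 (SE), a 2.74-fold higher level, with 2.52 to 2.97 as the range at ± 2 SE. It ranked 45th of the 17935 tested genes, among 146 genes that rose at least 2-fold.

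Transcripts of HMGA2 differ in their 3′ ends. Of its 7 coding transcripts with an annotated 3′ UTR, HMGA2-204, the principal one, held all 4 matches. HMGA2-210, with a 3′ UTR of 7421 bases, and the other 5, with UTRs of 106 to 909 bases, held none. Chromosomal rearrangements in tumours are known to remove the 3′ UTR of HMGA2 and with it the let-7 sites. The deposited counts are per gene, so which of these ends gave the HMGA2 reads cannot be told from them. An unnamed gene on the other strand, RP11-366L20.2, shares 384 exon bases with HMGA2 (2.49%), but it had 3 to 7 counts in each library.

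HMGA1, the paralogue of HMGA2 with the same kind of AT-hooks, was the most abundant of the 7 genes. Its levels were 358, 370 and 367 CPM in the shATXN7L3 libraries, against 349, 333 and 314 CPM in the shcontrol libraries. The shATXN7L3 libraries were all higher, but the highest shcontrol library came close to the lowest of them. The log2 fold change was 0.14 ± 0.0452 (SE), a level 1.1-fold that of shcontrol (1.03 to 1.17 at ± 2 SE). On the TPM scale, which divides counts by exonic length, HMGA1 stood at 237 ± 2.74 TPM in shATXN7L3 and 213 ± 8.92 TPM in shcontrol. HMGA2 made up 1.53 ± 0.0238% of the summed HMGA TPM in shATXN7L3 and 0.623 ± 0.0333% in shcontrol (mean ± SD, n = 3 each). These shares rest on the deposited exonic lengths, and per length of the chosen transcripts they were 4.24 ± 0.064% and 1.75 ± 0.0924%.

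LIN28B was at the floor of detection. It had 1, 6 and 0 counts in the shATXN7L3 libraries and 2, 2 and 0 counts in the shcontrol libraries, sums of 7 and 4. It did not pass the filter on low counts, and no fold change is given. A count of 0 allows up to 3 counts in a library, which is 0.124 to 0.138 CPM at these depths. LIN28A, the paralogue that blocks let-7 in stem cells, had 1 count in shATXN7L3 and 0 in shcontrol. The LIN28B gene (chr6:104936616-105083332) was above that floor in shATXN7L3 replicate 2 alone, and both groups lay within a few counts of 0.

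The 3 IGF2BP genes encode cytoplasmic RNA-binding proteins that stabilise and localise target mRNAs such as IGF2 and MYC, and that bind RNA carrying N6-methyladenosine. All were expressed, and their differences were far smaller than that of HMGA2. IGF2BP1 had 59.7, 60.7 and 59.3 CPM in the shATXN7L3 libraries, against 66.0, 63.2 and 65.3 CPM in the shcontrol libraries. The groups did not overlap, and the shATXN7L3 libraries were the lower ones. The log2 fold change was -0.12 ± 0.0465 (SE), a fold of 0.923 (0.865 to 0.984 at ± 2 SE).

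IGF2BP2 had 40.1, 38.7 and 38.6 CPM in shATXN7L3 and 34.8, 38.0 and 39.5 CPM in shcontrol. The groups overlapped, with shcontrol replicate 1 low and replicate 3 inside the shATXN7L3 range. Its log2 fold change was 0.07 ± 0.0563 (SE), and the fold at ± 2 SE ran from 0.968 to 1.13. IGF2BP3 had 37.8, 35.0 and 36.8 CPM in shATXN7L3 and 34.6, 37.7 and 34.9 CPM in shcontrol. These groups overlapped almost fully. Its log2 fold change was 0.03 ± 0.0556 (SE), with 0.947 to 1.1 as the range of the fold. Of the exon bases of IGF2BP3, 17.9% are shared with MALSU1 on the other strand, which had 447 to 527 counts in each library. Whether strand was used in counting is not given in the sources used here, so some of these reads cannot be told apart.

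Together the IGF2BP mRNAs summed to 28.9 ± 0.684 TPM in shATXN7L3 and 28.7 ± 1.43 TPM in shcontrol (mean ± SD, n = 3 each). IGF2BP1 took 33.7%, 35.1% and 34.3% of the sum in shATXN7L3 and 38.9%, 35.8% and 36.6% in shcontrol. Its share was the lower one in every shATXN7L3 library. IGF2BP2 took 43.2 ± 0.294% in shATXN7L3 and 41.1 ± 1.61% in shcontrol, and IGF2BP3 22.4 ± 0.63% and 21.8 ± 0.945%. Per length of the chosen transcripts IGF2BP1 took 27.4 ± 0.702% in shATXN7L3 and 29.7 ± 1.4% in shcontrol, and it was again lower in every shATXN7L3 library.

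ARID3B, which encodes a DNA-binding protein of the AT-rich interaction domain family, was the least abundant of the genes that passed the filter by CPM. It had 6.11, 6.8 and 6.7 CPM in the shATXN7L3 libraries, against 6.36, 5.66 and 5.89 CPM in the shcontrol libraries. The groups overlapped, since shATXN7L3 replicate 1 lay below shcontrol replicate 1. The log2 fold change was 0.13 ± 0.104 (SE), and the fold at ± 2 SE ran from 0.949 to 1.26.

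**Figure D1:**
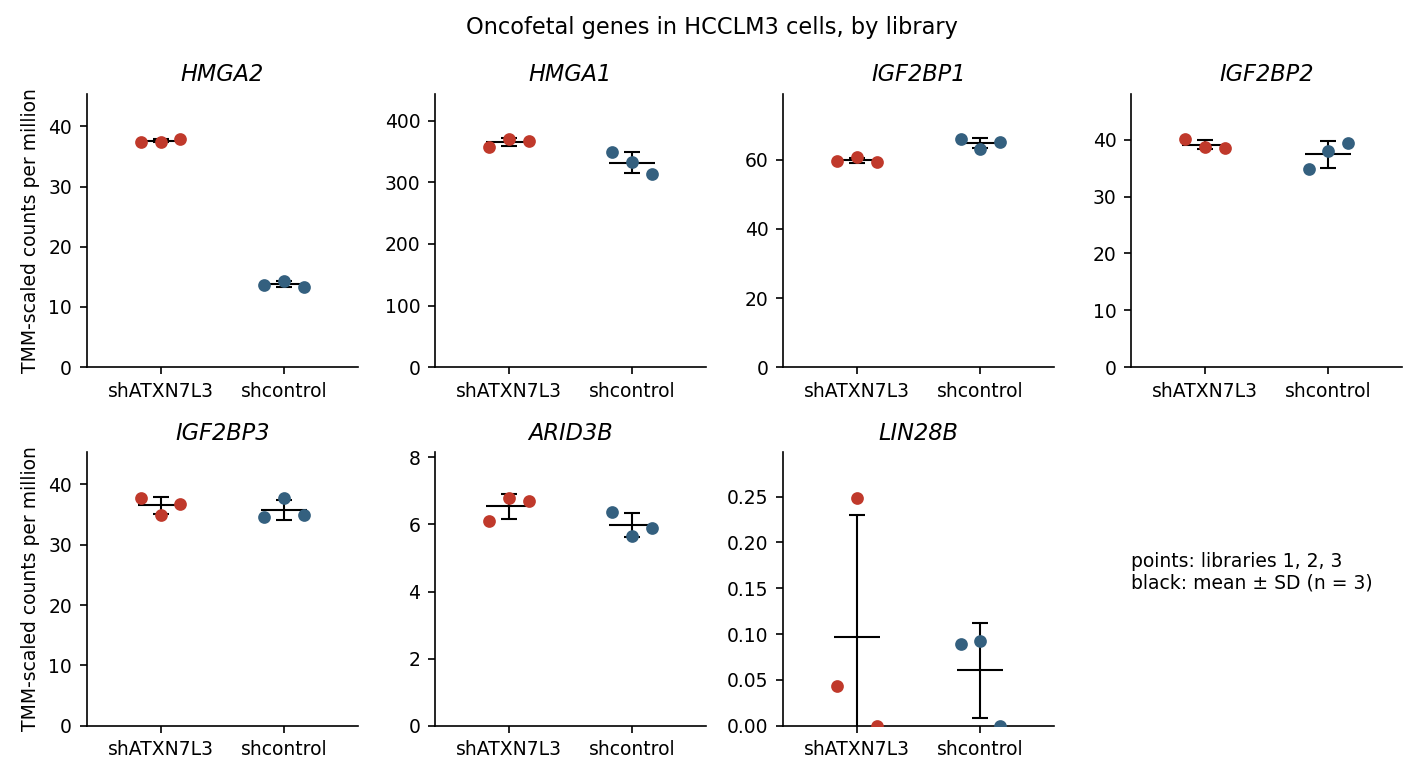
Level of each of the 7 genes in CPM (y axis, one scale per gene) in the shATXN7L3 libraries and, to their right, the shcontrol libraries, with points for libraries and bars for the mean and SD of 3. HMGA2 stands apart at 37.5 to 37.9 CPM in shATXN7L3 against 13.4 to 14.3 CPM in shcontrol.

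In the edgeR fit over all genes, 2 of the 6 genes that passed the filter (HMGA2 and HMGA1) counted as higher, 0 as lower and 4 as neither. HMGA1 dropped out of that count with DESeq2 or when any 1 library other than shcontrol replicate 1 was left out. Over all tested genes 24.2% passed, 12.2% higher and 12.0% lower. The groups did not overlap for 2 genes that were higher in shATXN7L3 and 1 that was lower, and they did not overlap for 38.3% of all tested genes (19.8% higher and 18.4% lower). Since the genes were chosen with this comparison known, nothing is read from these counts. The log2 fold changes other than that of HMGA2 ran from -0.12 to 0.14, and the median over the 6 was 0.1, against 0.01 over all tested genes.

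**Figure D2:**
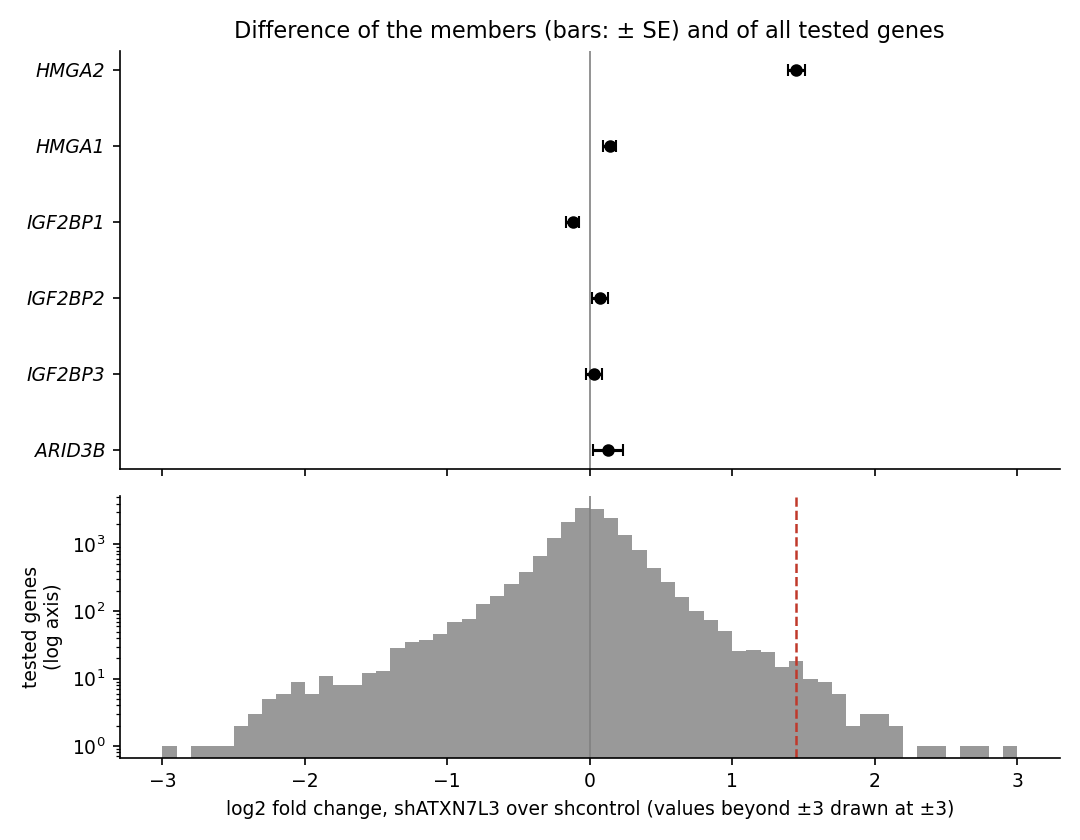
Log2 fold change of shATXN7L3 over shcontrol (x axis) for the 6 genes that passed the filter, with bars of ± SE (top), and the number of all 17935 tested genes at each fold change on a log axis, with a dashed line at HMGA2 (bottom). HMGA2 lies at 1.45, in the upper tail of all genes, and the other 5 lie between -0.12 and 0.14.

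Per length, the order of levels differed between the groups at a single place. In shATXN7L3 it ran HMGA1, IGF2BP2 at 12.5 ± 0.381, IGF2BP1 at 9.93 ± 0.178, IGF2BP3 at 6.48 ± 0.276, HMGA2 at 3.69 ± 0.0221, ARID3B at 1.59 ± 0.0802 and LIN28B at 0.0245 ± 0.0335 TPM (mean ± SD, n = 3). No neighbours in this order had overlapping libraries. In shcontrol it ran HMGA1, IGF2BP2 at 11.8 ± 1.01, IGF2BP1 at 10.6 ± 0.541, IGF2BP3 at 6.25 ± 0.193, ARID3B at 1.43 ± 0.105, HMGA2 at 1.33 ± 0.0173 and LIN28B at 0.0147 ± 0.0127 TPM. There IGF2BP2 and IGF2BP1 overlapped, and so did ARID3B and HMGA2. The place of HMGA2 depends on the length it is divided by, because the deposited exonic length joins all its transcripts to 15403 bases while HMGA2-204 has 4473. Per kilobase of the chosen transcript, HMGA2 stood at 8.42 ± 0.0421 CPM in shATXN7L3 and 3.08 ± 0.111 CPM in shcontrol, above ARID3B in both groups and above IGF2BP1 in shATXN7L3.

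A match to the let-7 seed was shared by genes that went either way. Leaving the 7 genes out, 1213 tested protein-coding genes held a match, of which 191 (15.7%) rose and 188 (15.5%) fell in shATXN7L3 by the edgeR threshold, with a median log2 fold change of 0.009. Of the 11372 genes without one, 1629 (14.3%) rose and 1626 (14.3%) fell, with a median of 0.005. Genes with matches had longer 3′ UTRs, with a median of 2814 bases against 956 bases for genes without. With 8mers alone, 13.4% of 456 genes rose and 13.6% fell.

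**Figure D3:**
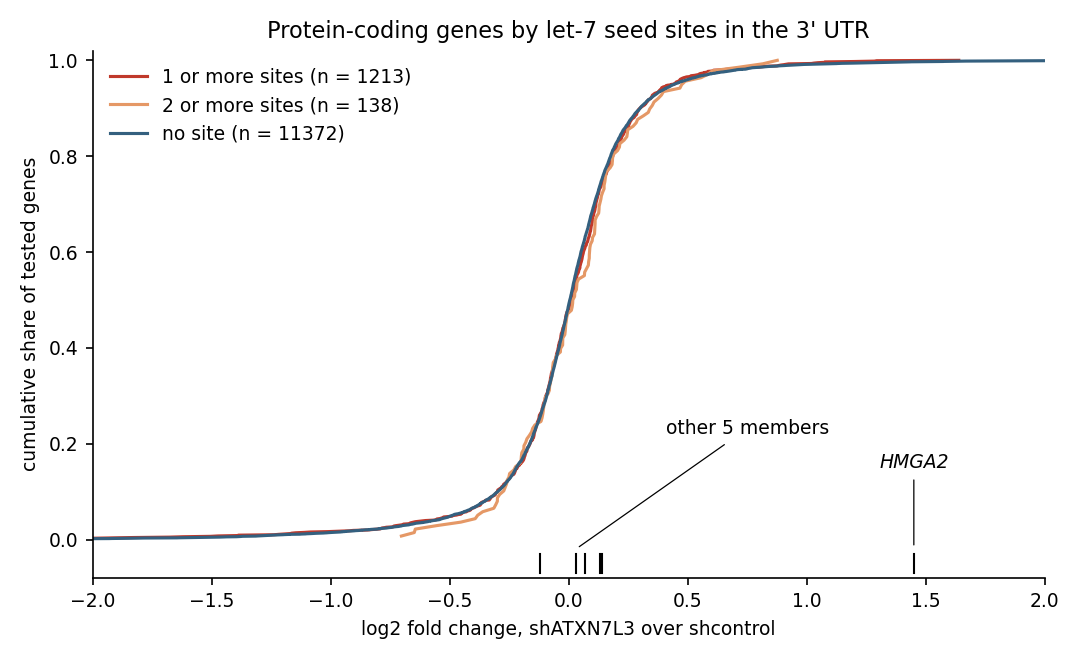
Cumulative share of tested protein-coding genes (y axis) by log2 fold change of shATXN7L3 over shcontrol (x axis), for genes with at least 1 let-7 seed match (1213), with at least 2 (138) and with none (11372), and with ticks for the 6 genes that passed the filter. The 3 curves lie almost on each other, with medians of 0.009, 0.021 and 0.005, and the tick of HMGA2 at 1.45 lies in their upper tail.

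Of the 9 other genes with at least 4 matches, like HMGA2 and IGF2BP1, 8 could be tested, and their log2 fold changes ran from -0.7 to 0.29. SMC1A, a subunit of cohesin, fell, with 718 CPM in shATXN7L3 against 884 CPM in shcontrol (log2 fold change -0.30, edgeR adjusted p = 2.08e-05). TRIM71, a fetal RNA-binding protein and a classical let-7 target with 6 matches, stood at 0.816 CPM in shATXN7L3 and 1.33 CPM in shcontrol, with an edgeR adjusted p of 0.0566. It passed without a filter (0.0413), with limma voom (0.0493), and with edgeR without shATXN7L3 replicate 3 (0.043) or shcontrol replicate 1 (0.0439). HEMK1 rose (log2 fold change 0.27, edgeR adjusted p = 0.037), a call lost with DESeq2 (0.12) and with edgeR without shATXN7L3 replicate 2 (0.0776) or 3 (0.164) or shcontrol replicate 1 (0.171).

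Other known let-7 targets, from a list of 39, changed about as often as protein-coding genes at large. Of 35 that could be tested, 4 rose, 6 fell and 25 did not pass (28.6% called, against 28.8% of all tested protein-coding genes), with a median log2 fold change of -0.02 (0.01 over all tested genes). Of the 35, 24 held a match, among them all 4 that rose and 2 of those that fell, and no link between match and direction was tested. The 4 that rose are named after their values were seen. They were FAS, the death receptor (log2 fold change 1.64 ± 0.303 SE), E2F5 (0.33 ± 0.0633), NRAS (0.32 ± 0.0606) and SMARCAD1 (0.24 ± 0.0543). FAS was low, at 0.946, 1.12 and 1.17 CPM in shATXN7L3 against 0.4, 0.23 and 0.395 CPM in shcontrol. Among those that fell, IGF1R, the receptor of IGF2, and ONECUT2 held 2 matches each, while THBS1 and MYCN held 0. THBS1 averaged 143 ± 3.01 CPM in shATXN7L3 and 267 ± 1.51 CPM in shcontrol (edgeR adjusted p = 6.57e-12), and IGF1R 78.3 ± 0.923 CPM and 96.4 ± 2.11 CPM (edgeR adjusted p = 4.73e-05).

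**Figure D4:**
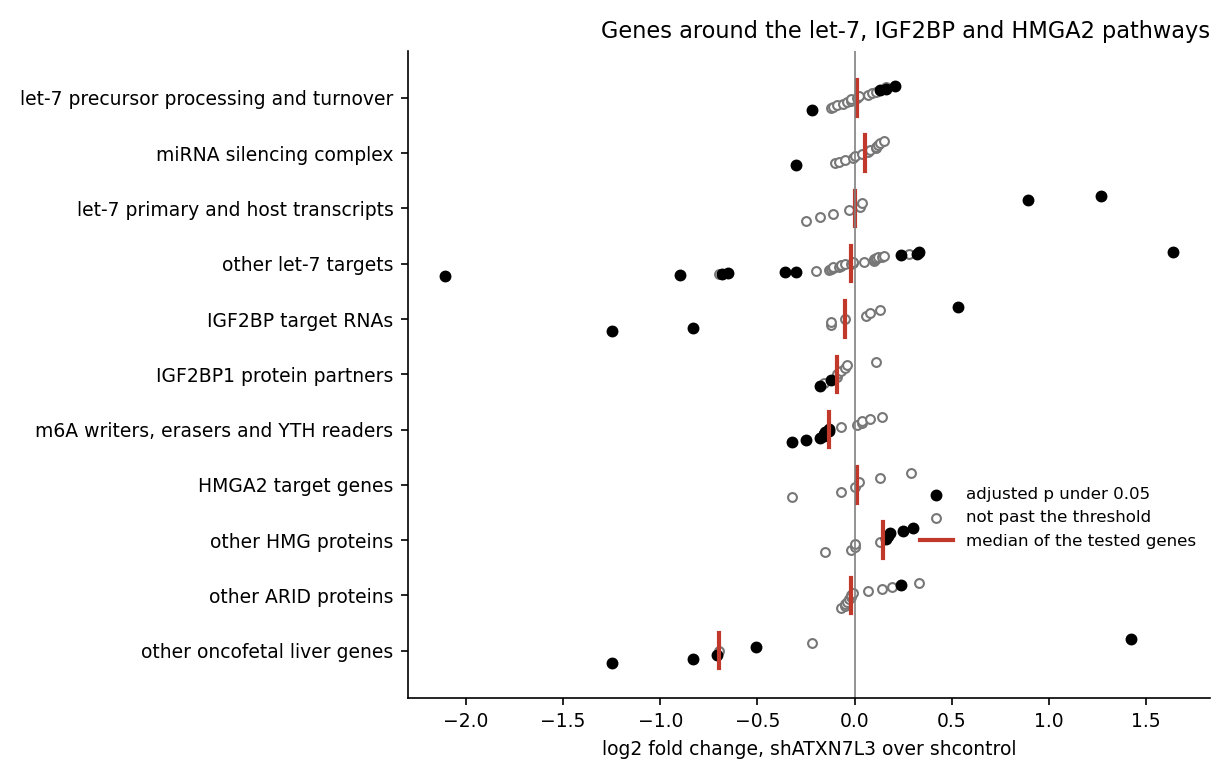
Log2 fold change of shATXN7L3 over shcontrol (x axis) for each tested gene of 11 lists around the let-7, IGF2BP and HMGA2 pathways (y axis), filled where the edgeR adjusted p was under 0.05, with a bar at the median of each list. Genes of the let-7 target list lie on both sides of 0, from MYCN at -2.11 to FAS at 1.64.

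Of 17 tested genes of let-7 precursor processing and turnover, 3 rose and 1 fell, with a median log2 fold change of 0.01. The share called was 23.5%, against 24.2% of all tested genes and 28.8% of tested protein-coding genes. Each of the calls ended under another setting. TRIM25 (log2 fold change 0.16) lost its call without shATXN7L3 replicate 3 (edgeR adjusted p = 0.0838), and DDX5 (0.13) without any single shATXN7L3 library (0.0693 to 0.103). PRKRA (0.21) lost it with DESeq2 (0.129) and, with edgeR, without shATXN7L3 replicate 1 (0.121) or 2 (0.0712) or shcontrol replicate 2 (0.11). PAPD4 (-0.22) lost it in 8 settings (0.0544 to 0.136), among them DESeq2, no filter, library size alone and edgeR without any single shATXN7L3 library or without shcontrol replicate 1 or 2. Of 14 genes of the silencing complex, TNRC6C, a GW182 protein that links Argonaute to deadenylation, fell to 27.6 ± 0.785 CPM in shATXN7L3 against 33.9 ± 0.651 CPM in shcontrol, and the other 13 did not pass (7.14% called).

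Of 8 tested primary or host transcripts of let-7, 2 rose and 0 fell. The share called was close to the 24.2% of all tested genes called in either direction. Of all tested genes 12.2% rose. MIR100HG, which hosts a let-7a hairpin, had 6.75, 5.23 and 5.15 CPM in the shATXN7L3 libraries, against 2.49, 2.26 and 2.33 CPM in the shcontrol libraries. The groups did not overlap (log2 fold change 1.27 ± 0.146 SE, edgeR adjusted p = 2.21e-06). MIR99AHG, the host of let-7c, had a log2 fold change of 0.89 ± 0.296 (SE) and lost its call with DESeq2 (0.113) and, with edgeR, without shATXN7L3 replicate 1 (0.0759) or 2 (0.195) or shcontrol replicate 2 (0.166) or 3 (0.0554). MIRLET7I averaged 3.13 CPM in shATXN7L3 and 3.73 CPM in shcontrol and did not pass.

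Of 9 tested RNAs known to be bound by the IGF2BP proteins, 1 rose and 2 fell. The share called was 33.3%, against 24.2% of all tested genes and 28.8% of tested protein-coding genes. IGF2, the fetal growth factor for which the proteins are named, had 2.49, 2.61 and 3.14 CPM in the shATXN7L3 libraries, against 6.8, 6.49 and 6.33 CPM in the shcontrol libraries (log2 fold change -1.25 ± 0.126 SE, edgeR adjusted p = 4.17e-07). H19, the noncoding RNA beside IGF2, stood at 111 ± 7.33 CPM in shATXN7L3 against 197 ± 10.0 CPM in shcontrol (-0.83 ± 0.0522, edgeR adjusted p = 5.00e-10). FSCN1, an actin-bundling protein and the gene that rose, rose to 42.4 ± 1.81 CPM in shATXN7L3 against 29.3 ± 2.27 CPM in shcontrol. Without shcontrol replicate 1, 3 of the 9 rose. The summed IGF2BP mRNA differed by less than the spread between libraries, and a link between it and the RNAs bound was not tested.

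Among 14 genes that write, erase or read N6-methyladenosine, 8 fell and 0 rose (median log2 fold change -0.13). The share called was 57.1%, against 24.2% of all tested genes and 28.8% of tested protein-coding genes. Of all tested genes 12.0% fell. The list was chosen with earlier results of these data known, so nothing is read from its share. The 2 whose calls held in all the settings tried were those of the readers YTHDC1, at 95.9 ± 1.49 CPM in shATXN7L3 and 114 ± 3.97 CPM in shcontrol, and YTHDC2, at 26.7 ± 1.05 and 33.3 ± 2.52 CPM. The count of genes that fell was 2 with library size alone or without shATXN7L3 replicate 1 or 3, 5 with DESeq2 or without shATXN7L3 replicate 2 or shcontrol replicate 3, and 4 without shcontrol replicate 2.

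The HMG proteins other than HMGA1 and HMGA2 rose in part. Of 10, 5 rose and 0 fell, with a median log2 fold change of 0.14. HMGN4 averaged 24.7 ± 1.08 CPM in shATXN7L3 and 20.0 ± 1.86 CPM in shcontrol (edgeR adjusted p = 0.003), and HMG20B 21.4 ± 0.409 and 17.9 ± 0.934 CPM (edgeR adjusted p = 0.00677). Without shATXN7L3 replicate 2 the count was 2. Of 6 tested genes reported as direct targets of HMGA2, 0 passed the edgeR threshold (1 at an unadjusted p under 0.05, and 0 with DESeq2 or limma voom), and the cyclin CCNA2 averaged 38.3 CPM in both groups. Of 13 other ARID genes, KDM5B alone was called (7.69%). It rose (0.24), a call lost without shATXN7L3 replicate 2 (edgeR adjusted p = 0.0623) or 3 (0.0596) or shcontrol replicate 2 (0.0546).

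A list of 10 other oncofetal genes of the liver was chosen with earlier results of these data known, so nothing is read from its counts. Of 7 tested, 4 fell and 1 rose in shATXN7L3, with a median log2 fold change of -0.7. The share called was 71.4%, against 24.2% of all tested genes and 28.8% of tested protein-coding genes. PEG10, an imprinted retrotransposon-derived gene, fell to 28.8 ± 0.923 CPM in shATXN7L3 against 46.9 ± 1.07 CPM in shcontrol (edgeR adjusted p = 6.06e-09). IGF2 and H19, already counted among the RNAs bound by the IGF2BP proteins, fell as well. AFP, the fetal albumin-like protein, stood at 2.04 CPM in shATXN7L3 and 2.91 CPM in shcontrol. Its call was lost with DESeq2 (0.113) and, with edgeR, without shATXN7L3 replicate 2 (0.11) or 3 (0.0915) or shcontrol replicate 3 (0.0765). EPCAM had 1.01 ± 0.368 CPM in shATXN7L3 and 0.374 ± 0.247 CPM in shcontrol, and lost its call without shATXN7L3 replicate 3 (edgeR adjusted p = 0.0992) or shcontrol replicate 1 (0.0516). The hepatocyte markers fell beside these genes, with a median log2 fold change of -0.73 over the 9 tested, and their part in these values was not tested.

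Genes beside the 7 loci were looked at because position had no part in choosing them. Within 500 kb of the loci lay 84 tested genes, of which 7 rose and 11 fell (21.4%, against 24.2% of all tested genes). With library size alone, or without shcontrol replicate 1, 16 and 11 rose. With DESeq2 5 fell, without any single shATXN7L3 library 7, and without shcontrol replicate 1 6. No tested gene lay within 100 kb of HMGA2. Within 500 kb of it, 0 of 6 tested genes rose and 2 fell (33.3%). MSRB3, 336 kb before HMGA2, averaged 7.26 ± 0.562 CPM in shATXN7L3 and 11.6 ± 0.883 CPM in shcontrol (log2 fold change -0.67 ± 0.0928 SE, edgeR adjusted p = 2.08e-05), opposite in direction to HMGA2. GRIP1, 381 kb after it, had a log2 fold change of -0.27 and lost its call in 6 settings (edgeR or DESeq2 adjusted p up to 0.153), namely library size alone, DESeq2 and leaving out shATXN7L3 replicate 1 or 2 or shcontrol replicate 1 or 3. Beside LIN28B, POPDC3 rose to 6.61 ± 0.812 CPM in shATXN7L3 against 4.69 ± 0.352 CPM in shcontrol. Of 22 tested genes around IGF2BP1, 1 rose and 5 fell (27.3%, near the 24.2% of all tested genes). Of the 5, HOXB3, HOXB4, HOXB8 and GIP each lost the call with DESeq2 and, with edgeR, when single libraries were left out (adjusted p up to 0.126, 0.166, 0.114 and 0.13). The libraries were shATXN7L3 replicate 1 or 2 or shcontrol replicate 1 or 2 for HOXB3, shATXN7L3 replicate 2 or 3 or shcontrol replicate 2 for HOXB4, shATXN7L3 replicate 2 or 3 or shcontrol replicate 1 for HOXB8, and shATXN7L3 replicate 1 or 3 or shcontrol replicate 1 for GIP. HOXB-AS1, whose call held, is an antisense RNA of the HOXB cluster 446 kb before IGF2BP1, and it had 0.35 ± 0.0427 CPM in shATXN7L3 and 0.883 ± 0.116 CPM in shcontrol (edgeR adjusted p = 0.00322). ATP5G1, a subunit of ATP synthase, was the one that rose, to 17.8 ± 0.467 CPM in shATXN7L3 against 14.1 ± 0.801 CPM in shcontrol.

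The genes whose pattern over the 6 libraries lay nearest to that of HMGA2 were found by the root mean square difference of centred log2 CPM among 10348 genes. They were TMC5 (0.0597), CLMP (0.0732) and IL13RA2 (0.0802). TMC5 averaged 6.62 ± 0.138 CPM in shATXN7L3 and 2.46 ± 0.17 CPM in shcontrol, CLMP 49.9 ± 0.237 and 17.2 ± 1.33 CPM, and IL13RA2 319 ± 0.47 and 127 ± 4.13 CPM. Nearest to HMGA1 were SLC25A1 (0.0141), QTRT2 (0.0159) and MRPS16 (0.0163). The 6 libraries form 2 groups, so genes with a like difference between the groups come out near each other.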

How the data were processed

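The deposited file is a table of raw read counts per gene for the 6 libraries, made by the authors, with gene coordinates, strand and exonic length. Per the labels, RNA was extracted with Trizol and selected for poly-A tails. Trimmomatic 0.36, STAR 2.5.3a, Subread 1.5.1 with featureCounts, edgeR 3.12.1 and the build GRCh38 stand in the submitters' processing notes. The sources used here do not give the annotation release, the strand setting or the handling of multiply matching reads.

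All genes past filterByExpr (minimum count 10, minimum total 15) were tested in R 4.3.3 with edgeR 4.0.16 (glmQLFit, glmQLFTest), with TMM factors of 0.972 to 1.02 and Benjamini-Hochberg adjustment over all 17935. The common biological coefficient of variation was 4.37%. The SE of a log2 fold change was derived from it and from F, as an approximation. The procedure was tested on simulated counts. TPM was computed from the deposited counts and lengths. For each gene, the GENCODE 29 transcript of best APPRIS rank, then of longest 3′ UTR, was searched for let-7 matches.

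The members, the lists and the rule for named genes were chosen with earlier results of these data known. Of each list, up to 4 genes past the threshold with the smallest p are named (or the 2 most abundant), and other names were added after values were seen. Chi-square per gene was 1.59 to 2.18 between shATXN7L3 libraries and 3.6 to 6.52 between shcontrol libraries, where sampling alone gives 1. It was computed from library totals without TMM factors. It cannot tell separate cultures from repeat preparations of the same RNA, and every library was kept as a separate one. Intervals at ± 2 SE rest on 3 libraries a group. Floors cover counting error only. Alternatives were library size alone, scaling by upper quartiles or by DESeq2 size factors, no filter, CPM of at least 1 in 3 libraries, DESeq2 1.42.0, limma voom (limma 3.58.1), a replicate block, leaving out each library, other windows and other let-7 matches. Levels and family shares per chosen transcript were added after seeing the data. A gene that the rule names is not reported here.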

Additional observations from a re-analysis of the deposited data

How the results depend on the processing

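The log2 fold change of HMGA2 was 1.45, 1.5 with library size alone and 1.43 to 1.48 with a library left out. That of IGF2BP1 was -0.12, -0.07 with library size alone and -0.13 to -0.10 with a library left out. The members past the threshold and higher were 1 with DESeq2 and 1 to 2 with a library left out. Over all genes, 2182 rose and 2150 fell. With DESeq2 these were 1405 and 1603, with library size alone 2955 and 1604, and with a library left out 1543 to 2224 and 1547 to 2257. Same-numbered libraries correlated at -0.016, 0.005 and 0.044, within the range of the other pairs (-0.072 to 0.067). With 3 libraries a group, this cannot show whether the numbers mark a shared batch. With the replicate block 2188 rose and 2140 fell. The pathway lists held 134 tested genes. Of these, 17 rose (10 to 20 with a library left out, the lowest without shATXN7L3 replicate 2). In the same lists 22 fell (13 with library size alone, 13 to 22 with a library left out, the lowest without shATXN7L3 replicate 1 or 3). Over all tested genes 12.2% rose and 12.0% fell. The median of genes with a let-7 match was 0.009, 0.053 with library size alone and 0.004 to 0.016 with a library left out. Of the neighbours, 7 rose (16 with library size alone, 5 to 11 with a library left out) and 11 fell (5 with DESeq2, 6 to 12 with a library left out), 8.33% fell within 100 kb against 13.1% within 500 kb. In the order of levels in shATXN7L3, without length, IGF2BP1 was at place 2, IGF2BP2 at 3, HMGA2 at 4 and IGF2BP3 at 5. Per chosen transcript, IGF2BP3 was at 3, HMGA2 at 4 and IGF2BP1 at 5. In shcontrol, without length, IGF2BP1 was at 2, IGF2BP2 at 3, HMGA2 at 5 and ARID3B at 6. Per chosen transcript, IGF2BP3 was at 3, IGF2BP1 at 4, HMGA2 at 5 and ARID3B at 6. The signs of 3 genes that did not pass turned, CCNA2 with library size alone (0.04) and, with a library left out (-0.06 to 0.03), without shATXN7L3 replicate 1 or 3 or shcontrol replicate 2, LIMD2 without shcontrol replicate 2 (-0.04 to 0.36) and ZBTB37 without shcontrol replicate 3 (-0.17 to 0.06). The causes were not tested. Depth limits LIN28B. The rest is limited by bulk RNA and by labels that name no second hairpin against ATXN7L3.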
